A study of Mus musculus with 2 samples.

Results

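The gene set described here comprised the numbered G protein-coupled receptor genes of the mouse, those whose symbol is Gpr followed by a number and at most 1 letter. They were taken by symbol alone from both deposited tables, and 94 of 22558 genes qualified. RNA sequencing had been done on 2 libraries, 1 of tumour-initiating cells (TIC) and the other of cells without that ability, called non-tumorigenic (NTC). Both came from breast tumours of mice of the inbred FVB strain. In each case cells were dissociated from tumours, sorted by flow cytometry at once and left untreated, and 15 ng of total RNA was amplified before library construction. Neither the surface markers used for sorting nor the number of tumours or animals pooled is given in the labels. With 1 library per group there is no replicate, so no SD, test or p-value is given and every difference is between these libraries, not between the cell types in general.

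G protein-coupled receptors cross the cell membrane in a bundle of helices and pass signals to heterotrimeric G proteins, which act on cyclic AMP, calcium and the cytoskeleton. A Gpr number was given when a receptor was found by sequence before its ligand was known. Many have since been matched to a ligand, and others remain orphans. The adhesion receptors among them carry a long extracellular part that is cut next to the membrane in most members and binds matrix or neighbouring cells. A few numbered genes encode membrane proteins that are not classical receptors, such as a Golgi ion channel and a riboflavin transporter. The set therefore mixes proteins of different kinds and was divided into classes by known role.

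Levels are in FPKM, fragment numbers corrected for transcript length and library size, as deposited. Ratios are log2((TIC + 1)/(NTC + 1)), with 1 FPKM added to each level, which understates differences of low genes. A gene whose mean over both libraries reaches 1 FPKM is called measured, and 2-fold means a log2 ratio of at least 1 in size. Low levels of odorant and pheromone receptor genes, taken within a fixed range, put 1 FPKM at roughly 21.0 reads per kilobase in TIC and 21.6 in NTC. The chosen range bounds this estimate, which rests on 23 genes in TIC and 39 in NTC. Values of all genes summed to 332935 FPKM in TIC and 376464 in NTC. Markers of the mammary layers separated the libraries, with all 8 basal markers past 2-fold toward TIC (median log2 ratio 5.97) and all 8 luminal markers past it toward NTC (median -7.04). In bulk RNA, fewer cells of a type and less RNA per cell cannot be told apart.

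Of the 94 members, 23 were measured (24.5%), against 53.2% of all genes. The other 71 had a mean below 1 FPKM, and 20 of them were listed at 0 in both libraries. An exact 0 in these tables is not read as absence. Among the 23 measured members, 7 were higher in TIC by 2-fold or more (30.4%, against 14.6% of all 12004 measured genes) and 6 were lower by as much (26.1%, against 13.8%). Together these are 13 members, set against 28.4% of all measured genes in either direction. The other 10 lay within 2-fold. The median log2 ratio of the measured members was -0.29, against -0.16 over all measured genes. Its sign turned with the selection, to 0.62 among the 10 members whose mean reached 5 FPKM and to 0.43 without the 4 measured members whose locus overlaps another gene. Of the 13 members past 2-fold, 8 were below 1 FPKM in one of the libraries. With 5 FPKM added in place of 1, members past 2-fold came to 17.4% higher and 4.35% lower in TIC, against 9.05% and 7.67% of all measured genes. Where the minimum mean was set at 5 FPKM they came to 30% higher and 10% lower, against 12.3% and 13% of all such genes. The share of members lower in TIC thus lay above that of all genes with 1 FPKM added and a minimum mean of 1 FPKM, and below it in both of these settings.

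**Figure D1:**
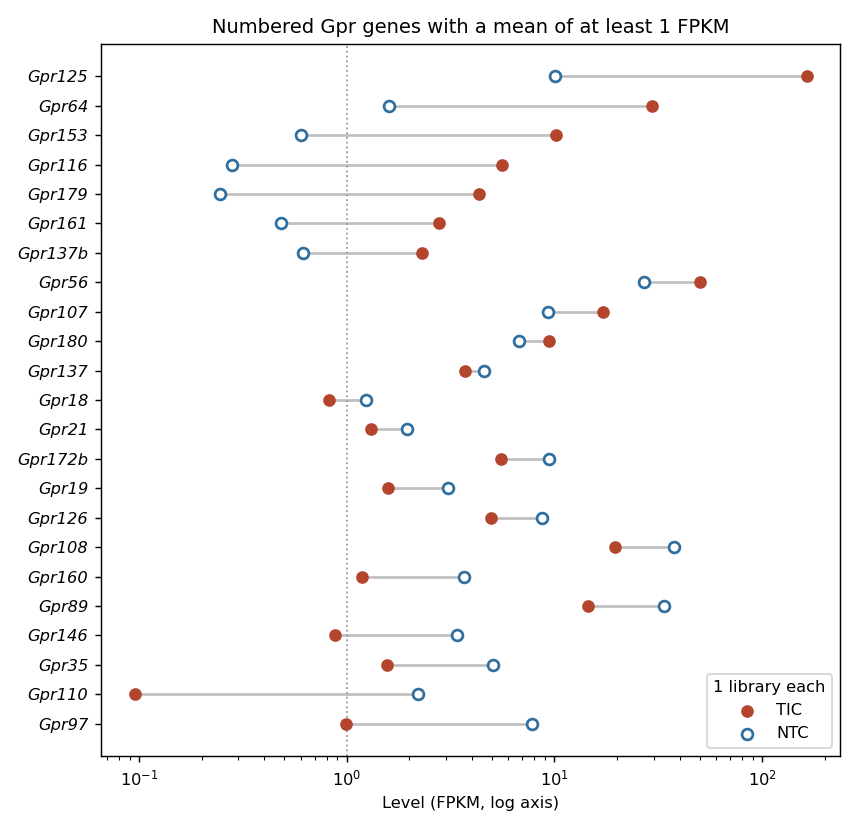
Level of each of the 23 measured members in TIC (filled) and NTC (open), in FPKM on a log axis, ordered by log2 ratio with the highest at the top and 1 library per group. Gpr125 reached 163.9 FPKM in TIC, and Gpr110 and Gpr97 had the lowest ratios.

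The set was dominated by Gpr125 in TIC and by proteins outside the classical receptor families in NTC. Summed over the 94 members, levels came to 366.2 FPKM in TIC and 188.4 in NTC. The 16 adhesion receptors held 69.8% of that sum in TIC and 30.8% in NTC. Gpr125 alone held 44.8% in TIC and 5.31% in NTC. Without Gpr125 the adhesion receptors summed to 91.6 FPKM in TIC and 48.0 in NTC. The 9 proteins outside the classical receptor families held 20.0% of the sum in TIC and 55.4% in NTC.

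**Figure D2:**
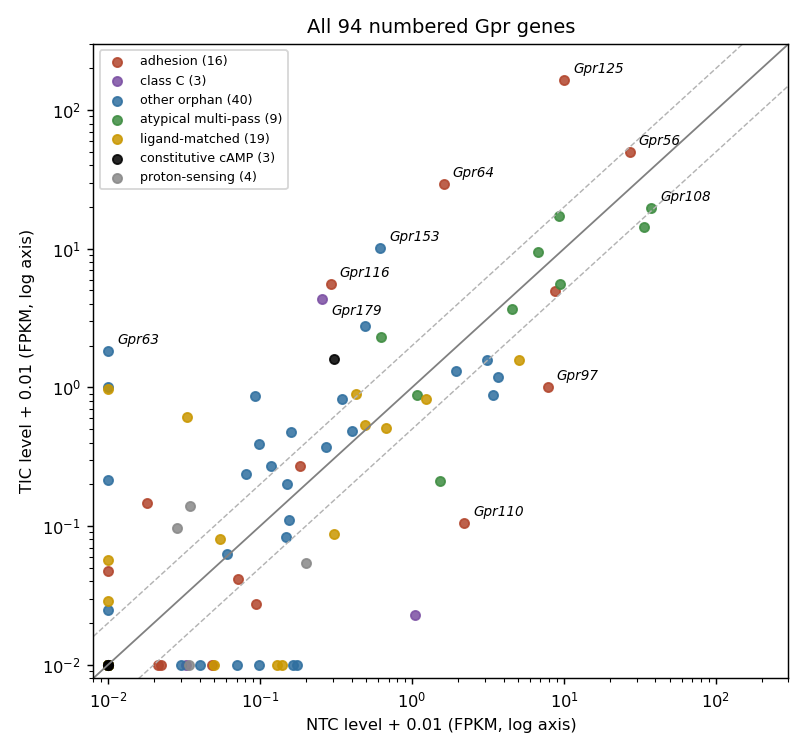
TIC level against NTC level for all 94 members, in FPKM with 0.01 added so that genes listed at 0 can be drawn on log axes. Colour gives the class with its number of genes, the solid line marks equal levels and the dashed lines 2-fold. Adhesion receptors lie both far above and far below the solid line, and many members gather at the lower left.

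Adhesion receptors stood at both ends of the ratios. Of 16, 7 were measured, with a median log2 ratio of 0.87. Past 2-fold lay 3 toward TIC (42.9%, against 14.6% of all measured genes) and 2 toward NTC (28.6%, against 13.8%). The promoters of the pair with the highest ratios and of the pair with the lowest ratios are shown first, since these 4 genes mark the ends of the range. Each line gives 250 bases before the transcription start on the strand of the gene, from RefSeq on build GRCm38.p6, with the dinucleotide CG in capitals.
Gpr125 (chr5:50058997-50059246, minus strand): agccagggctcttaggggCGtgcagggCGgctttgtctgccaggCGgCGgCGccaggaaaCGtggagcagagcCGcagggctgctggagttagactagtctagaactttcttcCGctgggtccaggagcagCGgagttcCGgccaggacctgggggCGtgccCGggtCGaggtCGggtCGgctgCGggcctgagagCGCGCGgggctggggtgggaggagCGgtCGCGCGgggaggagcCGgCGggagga
Gpr64 (chrX:160390440-160390689, plus strand): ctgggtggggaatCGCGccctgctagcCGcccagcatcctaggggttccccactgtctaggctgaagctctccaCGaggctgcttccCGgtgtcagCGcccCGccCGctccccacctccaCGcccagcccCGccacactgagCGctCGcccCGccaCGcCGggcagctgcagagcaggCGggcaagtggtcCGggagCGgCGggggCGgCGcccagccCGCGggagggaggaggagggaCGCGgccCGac
Gpr97 (chr8:95017442-95017691, plus strand): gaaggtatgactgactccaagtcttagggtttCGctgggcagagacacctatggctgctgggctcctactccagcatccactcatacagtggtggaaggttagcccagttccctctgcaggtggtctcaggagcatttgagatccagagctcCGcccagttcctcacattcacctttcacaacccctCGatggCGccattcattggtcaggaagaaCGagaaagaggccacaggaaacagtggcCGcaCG
Gpr110 (chr17:43270097-43270346, plus strand): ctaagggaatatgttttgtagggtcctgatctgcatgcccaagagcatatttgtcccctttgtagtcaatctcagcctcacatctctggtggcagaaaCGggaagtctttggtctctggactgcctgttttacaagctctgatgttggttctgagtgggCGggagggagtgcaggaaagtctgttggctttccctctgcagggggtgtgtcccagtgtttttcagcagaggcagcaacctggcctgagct

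These promoters differ in letters as the capitals show. The Gpr125 window holds 25 CG and that of Gpr64 holds 26, which 10.7% and 9.59% of all 32851 promoters equal or exceed. The Gpr97 window holds 7 and that of Gpr110 holds 2, numbers equalled or exceeded by 46.3% and 81.2%. Entries were found for 6 of the 7 members higher in TIC, all 6 lower and 8 of the 10 within 2-fold. The median was 7 CG over 9 promoters of members called higher in TIC, 5 over 9 promoters of those called lower, 14 over 15 promoters of those within 2-fold and 6 over all promoters. At least 10 CG stood in 44.4% of the promoters of higher members, 22.2% of those of lower members, 66.7% of those within 2-fold and 37.8% of all promoters. By the first promoter of each member this was 3 of 6 higher and 1 of 6 lower members, and 6 of 8 within 2-fold. Gpr116, with a high ratio, has 5 and 7 in its RefSeq promoters. The count is a description of these letters and says nothing of methylation or binding.

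Gpr125 had 163.9 FPKM in TIC and 10.01 FPKM in NTC (mm9 chromosome 5, 50351190 to 50450235). It was the highest member in TIC, at rank 280 of all genes there and at rank 6394 in NTC. Gpr125 is an adhesion receptor known as a marker of spermatogonial progenitors in the mouse testis. The quotient of its levels was 16.4, and its log2 ratio of 3.91 was the highest of the set with 1 FPKM added. With 0.1 FPKM added it lay at 4.02, below Gpr64 at 4.11. Its close relatives had means below 1 FPKM, with Gpr124, a Wnt co-receptor of brain vessels, at 0.261 FPKM in TIC against 0.174 in NTC. Gpr123, the other relative, was listed at 0 in TIC with 0.0124 FPKM in NTC.

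Gpr64, a receptor of the epididymis needed for male fertility, followed with 29.4 FPKM in TIC against 1.60 in NTC (chromosome X, 156828622 to 156936002). Its log2 ratio was 3.55. Gpr116, which limits surfactant in the lung and is also found in endothelium, had 5.58 FPKM in TIC against 0.282 in NTC (chromosome 17, 43526415 to 43596506), a log2 ratio of 2.36. The tables give several gene identifiers for Gpr116, so its value may join transcripts. Endothelial markers were at low levels. The 7 of that list summed to 3.16 FPKM in TIC and 0.351 in NTC, all with a mean below 1 FPKM, with Kdr at 1.61 FPKM in TIC against a listed 0 in NTC and Cldn5 listed at 0 in both. Their part in the Gpr116 value was not tested.

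Gpr56, a receptor for collagen III best known from the developing cortex, was high in both libraries. It had 50.1 FPKM in TIC against 27.0 in NTC (chromosome 8, 97501009 to 97538108). The log2 ratio of 0.87 lay within 2-fold, and passed it at 1.03 after centring on the median of all genes. Gpr126, which drives myelination by Schwann cells, had 4.96 FPKM in TIC against 8.75 in NTC, a log2 ratio of -0.71 and within 2-fold.

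Gpr97 and Gpr110 were the adhesion receptors lower in TIC. Gpr97, known from leukocytes, had 0.994 FPKM in TIC against 7.80 in NTC (chromosome 8, 97541592 to 97569149), a log2 ratio of -2.14 and the lowest of the set with 1 FPKM added. With 0.1 FPKM added it lay at -2.85, above Gpr110 at -3.56. Of 10 leukocyte markers, 6 were listed at 0 in both libraries, Ptprc and Cd3e among them. The list summed to 2.44 FPKM in TIC and 2.23 in NTC. The 2 measured were Cd68, at 0.828 FPKM in TIC against 1.38 in NTC, and Lyz2, at 1.56 against 0.727. Csf1r was listed at 0 in TIC with 0.108 FPKM in NTC, and Itgam had 0.0538 against 0.0115. The part of leukocytes in the Gpr97 value was not tested. Gpr110, a receptor for a fatty acid amide in neurons, had 0.0953 FPKM in TIC against 2.20 in NTC (chromosome 17, 43407296 to 43461355). That is about 7.7 reads in TIC and 183 in NTC, with a log2 ratio of -1.55. With 5 FPKM added in place of 1 it lay at -0.50, within 2-fold.

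Neighbouring adhesion genes differed from each other. On chromosome 8 the loci of Gpr56 and Gpr97 lie side by side within 68.1 kb with no other listed gene between them. Gpr56 lay within 2-fold and Gpr97 was lower in TIC. On chromosome 17, Gpr115, Gpr111, Gpr110 and Gpr116 lie within 803 kb, a stretch that also holds Cd2ap and Tnfrsf21. Gpr115 had 0.0173 FPKM in TIC against 0.0838 in NTC and Gpr111 had 0.0317 against 0.0620, which is about 1.1 and 5.5 reads for Gpr115 and about 2.2 and 4.4 for Gpr111. Gpr110 and Gpr116, next to each other, had opposite ratios of -1.55 and 2.36.

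**Figure D3:**
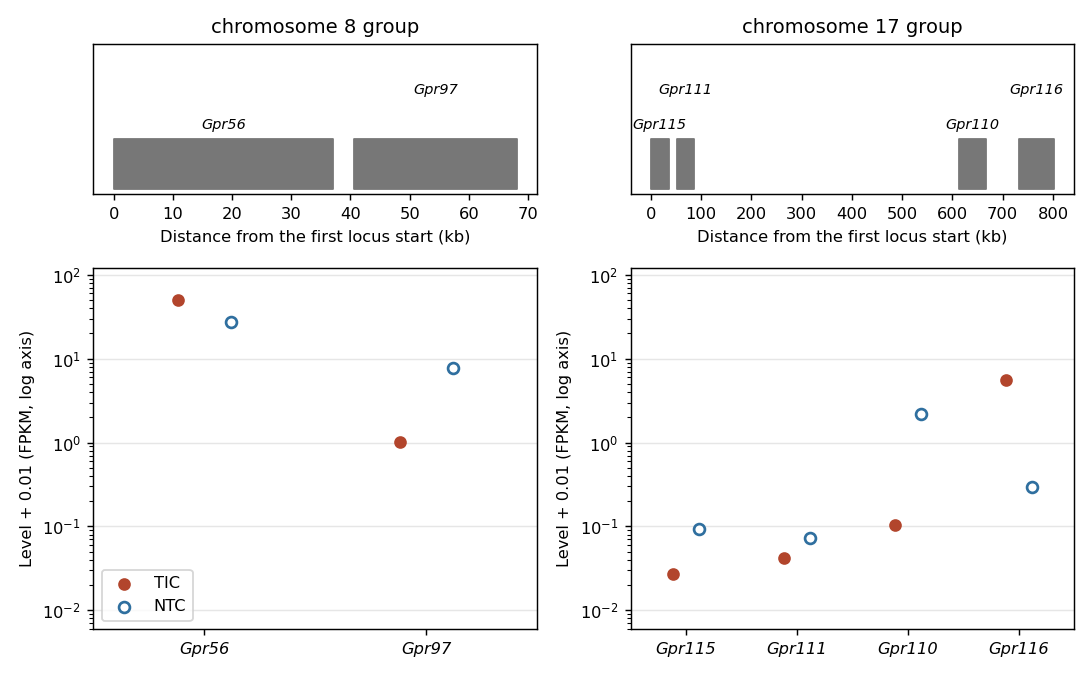
Adhesion receptor genes that lie near each other, as loci by distance from the first start in kb (top). Cd2ap and Tnfrsf21, also in the chromosome 17 stretch, are not drawn. Levels in TIC (filled) and NTC (open) are in FPKM with 0.01 added, on a log axis (bottom). On chromosome 8, Gpr56 lay within 2-fold and Gpr97 was lower in TIC; on chromosome 17, Gpr116 was higher and Gpr110 lower.

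The remaining adhesion members were all below 1 FPKM in mean. Their highest levels were 0.261 FPKM in TIC and 0.174 in NTC. Gpr98, the very large receptor of hair cells, had 0.137 FPKM in TIC against 0.00810 in NTC. Gpr128 had 0.0370 FPKM in TIC but none listed in NTC, and Gpr133 was listed at 0 in TIC with 0.0113 FPKM in NTC.

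Adhesion receptors without a Gpr number lay at both ends as well. Of 13 such genes, 7 were measured, with 4 past 2-fold toward TIC, 2 toward NTC and a median log2 ratio of 1.65. These counts are 57.1% and 28.6%, against 14.6% and 13.8% of all measured genes. Lphn3, a latrophilin, had 49.3 FPKM in TIC against 2.43 in NTC. Bai2 had 8.02 FPKM in TIC against 0.0934 in NTC, and Celsr1, of planar cell polarity, had 10.3 against 1.71. Cd97 went the other way with 1.66 FPKM in TIC against 46.8 in NTC. In level, Gpr125 in TIC exceeded each of them in either library.

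**Figure D4:**
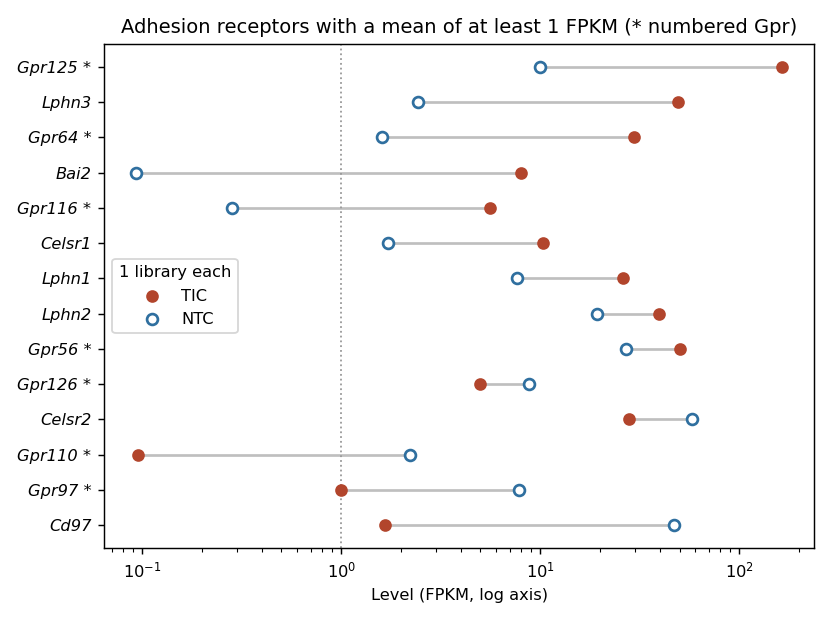
Levels in TIC (filled) and NTC (open) of the 14 measured adhesion receptors, in FPKM on a log axis, with an asterisk for numbered Gpr genes. With 1 FPKM added, Gpr125 had the highest log2 ratio and Cd97 the lowest, while the quotient of plain levels was 85.9 for Bai2, 20.3 for Lphn3 and 16.4 for Gpr125.

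Proteins known to bind the adhesion members were compared next. Of 16, 12 were measured, with a median log2 ratio of 0.97. Past 2-fold lay 6 toward TIC (50%, against 14.6% of all measured genes) and 2 toward NTC (16.7%, against 13.8%). For Gpr126, its ligand collagen IV had high levels in TIC, with Col4a1 at 709.9 FPKM in TIC against 6.85 in NTC and Col4a2 at 638.9 against 5.86. Prnp, the prion protein, another Gpr126 ligand, had 54.1 FPKM in TIC against 1.62 in NTC, and Lama2 had 0.0447 FPKM in TIC with 0 listed in NTC. Gpr126 itself lay within 2-fold, with a log2 ratio of -0.71.

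For Gpr56, its ligand genes were low or lower in TIC. Col3a1 had 0.221 FPKM in TIC with 0 listed in NTC, and Tgm2, a transglutaminase, had 6.89 against 93.7 FPKM. The tetraspanins Cd9 and Cd81, found in complex with Gpr56, had 242.1 FPKM in TIC against 162.1 in NTC and 362.7 against 686.5. For Gpr125, its intracellular partner Dlg1, known from human cells as a scaffold of cell polarity, had 15.8 FPKM in TIC against 31.9 in NTC. For Gpr116, the candidate ligands Sftpd and Fndc4 differed in sign. Sftpd was listed at 0 in TIC with 0.578 FPKM in NTC, and Fndc4 had 4.84 FPKM in TIC against 1.26 in NTC.

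Members classed as other orphan receptors were mostly below a mean of 1 FPKM. Of 40, 6 were measured, with 2 past 2-fold in each direction and a median log2 ratio of -0.51. That is 33.3% each way, against 14.6% of all measured genes toward TIC and 13.8% toward NTC. Gpr153 had 10.1 FPKM in TIC against 0.604 in NTC (chromosome 4, 151648471 to 151659446), a log2 ratio of 2.80 that was the third highest of the set with 1 FPKM added. Gpr161, which sits in the primary cilium and restrains hedgehog signalling, had 2.77 FPKM in TIC against 0.481 in NTC, a log2 ratio of 1.35. With 5 FPKM added it lay at 0.50, within 2-fold.

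The orphans lower in TIC had small levels. Gpr160 had 1.18 FPKM in TIC against 3.65 in NTC, a log2 ratio of -1.09, and lay at -0.93, within 2-fold, after centring on the median of all genes. Gpr146, tied to cholesterol control in the liver, had 0.875 FPKM in TIC against 3.41 in NTC, a log2 ratio of -1.23. Its locus overlaps 3110082I17Rik, at 14.5 FPKM in TIC and 16.99 in NTC, and the sources do not say how reads shared between genes were assigned. Gpr19 had 1.57 FPKM in TIC against 3.08 in NTC and Gpr21 had 1.30 against 1.95, both within 2-fold. Gpr21 lies inside the locus of Rabgap1, at 36.1 FPKM in TIC against 26.7 in NTC.

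In class C, the family of receptors for glutamate and related molecules, Gpr179 was measured. It serves vision in bipolar cells of the retina. Gpr179 had 4.33 FPKM in TIC against 0.245 in NTC (chromosome 11, 97193423 to 97213387), a log2 ratio of 2.10. Gpr158 of the same class was listed at 0 in TIC with 0.0223 FPKM in NTC.

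The 5 members with the highest ratios toward TIC had similar quotients of levels. It was 16.4 for Gpr125, 18.3 for Gpr64, 16.8 for Gpr153, 19.8 for Gpr116 and 17.7 for Gpr179. Their log2 ratios with 1 FPKM added lay between 3.91 and 2.10, since the added 1 FPKM weighs more on low levels. The first 3 had means over 5 FPKM and passed 2-fold under each pseudocount tried, as did Gpr116. With 5 FPKM added, Gpr179 lay at 0.83 and Gpr137b at 0.38, and Gpr146 and Gpr160 lay at -0.52 and -0.48, all within 2-fold.

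**Figure D5:**
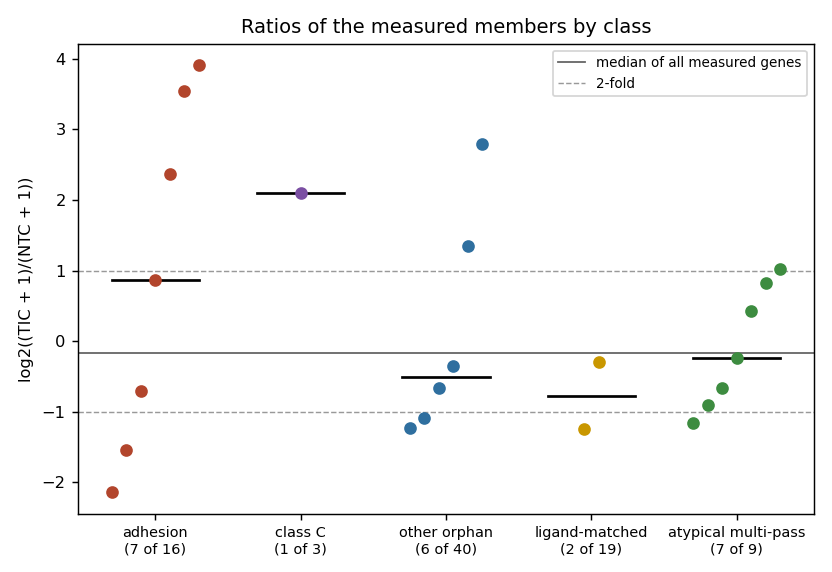
Log2((TIC + 1)/(NTC + 1)) of the 23 measured members by class, with the measured and total number of genes under each. Short bars are class medians, the solid line is the median of all 12004 measured genes and the dashed lines mark 2-fold. The adhesion class spans from -2.14 to 3.91, and the proteins outside the classical families from -1.17 to 1.03.

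Receptors that have been matched to ligands were scarce. Of 19, 2 were measured. Gpr35, a receptor of gut and immune cells for which kynurenic acid is a proposed ligand, had 1.56 FPKM in TIC against 5.08 in NTC, a log2 ratio of -1.25. With 5 FPKM added it lay at -0.62, within 2-fold. Gpr18 had 0.820 FPKM in TIC against 1.23 in NTC, within 2-fold. It lies in the locus of Ubac2 (10.6 FPKM in TIC and 13.8 in NTC) together with Gpr183, the oxysterol receptor, which had 0.523 FPKM in TIC and 0.477 in NTC. Gpr18 is also among the members with several gene identifiers.

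The receptors for lactate, protons, zinc and oestrogen had means below 1 FPKM. Gpr81, the lactate receptor, had 0.0186 FPKM in TIC, about 1.3 reads, with 0 listed in NTC. The proton sensors Gpr4, Gpr65 and Gpr132 reached at most 0.129 FPKM in TIC and 0.190 in NTC. Gpr39, a zinc receptor, had 0.496 FPKM in TIC and 0.668 in NTC. Gpr30, a receptor for oestrogen, had 0.0780 FPKM in TIC and 0.297 in NTC. Gpr84, Gpr55, Gpr65 and Gpr31c were listed at 0 in TIC with 0.0401, 0.129, 0.0241 and 0.119 FPKM in NTC.

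Some members below the mean of 1 FPKM were listed at 0 in NTC with reads in TIC. Gpr63 had 1.82 FPKM in TIC, about 90.6 reads. Gpr173 had 0.989 FPKM in TIC and Gpr37, a receptor for which prosaposin is a proposed ligand, had 0.969, each about 101 reads. These are the members of this kind with the highest TIC levels, and 8 members in all were listed at 0 in NTC only (8.51%, against 5.49% of all genes). In TIC only, 14 members were listed at 0 (14.9%, against 5.26% of all genes). The highest NTC level among these 14 was 0.164 FPKM, in Gpr171, and Gpr55 had the most estimated reads, about 10.3. Members were measured less often than all genes (24.5% against 53.2%), and the part of low levels in these shares was not tested. Gpr3, which raises cyclic AMP without a ligand and holds mouse oocytes in meiotic arrest, had 1.58 FPKM in TIC against 0.297 in NTC, while its relatives Gpr6 and Gpr12 were listed at 0 in both.

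Around the threshold, Gpr18, Gpr110 and Gpr137b lay just inside with means of 1.03, 1.15 and 1.45 FPKM. Gpr155, Gpr3 and Gpr63 lay just outside with means of 0.975, 0.939 and 0.910 FPKM.

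Of the 9 proteins outside the classical families, 7 were measured, and the median log2 ratio was -0.24. With 1 past 2-fold toward TIC and 1 toward NTC, 14.3% each way, their shares were close to the 14.6% and 13.8% of all measured genes. Gpr108, of the Golgi, had 19.7 FPKM in TIC against 37.5 in NTC, where it was the highest member. Gpr107, also of the Golgi, had 17.1 FPKM in TIC against 9.25 in NTC, so the related pair had log2 ratios of -0.90 and 0.82, both within 2-fold. Gpr89, an ion channel that sets Golgi pH, had 14.4 FPKM in TIC against 33.6 in NTC, a log2 ratio of -1.17, and -0.99 with 5 FPKM added. Gpr172b, a riboflavin transporter, had 5.54 against 9.37 FPKM, Gpr180 had 9.45 against 6.77 FPKM, both within 2-fold. All 9 of these proteins were listed above 0 in both libraries.

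The Gpr137 genes, membrane proteins of the lysosome, differed among themselves. Gpr137 had 3.69 FPKM in TIC against 4.56 in NTC at a locus shared with Bad. Gpr137b had 2.29 FPKM in TIC against 0.616 in NTC, a log2 ratio of 1.03. It has a listed pseudogene, Gpr137b-ps, with 3.57 FPKM in TIC against 1.23 in NTC, and reads of the pair may be divided between them. Gpr137c had 0.200 FPKM in TIC against 1.53 in NTC, with a mean below 1 FPKM. Gpr155, another lysosomal protein, had 0.875 FPKM in TIC and 1.07 in NTC.

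Arrestins and receptor kinases, which switch off active receptors, were compared as well. Of 11 such genes, arrestin-domain proteins included, 10 were measured, with a median log2 ratio of -1.08. By 2-fold or more, 5 were lower in TIC (50%, against 13.8% of all measured genes) and none higher (against 14.6%). Of those 5 genes, 3 have a single gene identifier, the arrestin-domain genes Arrdc1, Arrdc3 and Arrdc4. Arrb1 and Adrbk1 have several, so their values may join transcripts. Arrb1, a beta-arrestin that uncouples receptors, had 26.7 FPKM in TIC against 80.8 in NTC. Arrdc1 had 11.1 against 48.5 FPKM, Arrdc3 had 6.92 against 29.8 and Arrdc4 had 4.31 against 20.0. Of the receptor kinases, Adrbk1 had 11.2 FPKM in TIC against 29.8 in NTC and was the only measured one past 2-fold, while Adrbk2, Grk5 and Grk6 had log2 ratios of -0.09, 0.18 and 0.85. With ratios centred on the median gene, 1 of the list (Grk6, at 12.2 FPKM in TIC and 6.32 in NTC) passed 2-fold in the other direction.

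Markers of other cells stand beside these values. The 6 fibroblast markers summed to 171.4 FPKM in TIC and 2.37 in NTC, mostly Dcn at 151.8 against 1.51 FPKM. Col1a2 had 9.56 FPKM in TIC against 0.0119 in NTC and Pdgfra 8.83 against 0.513, while Col1a1 had 0.459 against 0.339 and Lum 0.573 FPKM in TIC and 0 in NTC. The 5 pericyte markers summed to 10.9 FPKM in TIC and 2.31 in NTC, with Rgs5 listed at 0 in both. Cspg4 had 8.51 FPKM in TIC against 0.0332 in NTC and Pdgfrb 2.44 against 0.0701, whereas Kcnj8 and Abcc9 were listed at 0 in TIC with 1.16 and 1.04 FPKM in NTC. The 5 glial and nerve markers summed to 723.4 FPKM in TIC and 289.3 in NTC, of which Ngfr had 373.9 against 0.274 FPKM and Sox10 345.8 against 288.1. The part of such cells in the levels of the members was not tested.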

How the data were processed

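The authors deposited 1 table of FPKM per library. Per the submitters' processing notes, Cuffdiff, Cufflinks, TopHat 1.4.0 and CASAVA 1.8.2 were used with build mm9, in roles not stated. Loci are those of mouse genes, although a human build stands in their column heading. Loci were compared with GRCm38 genes of the same symbol and chromosome, a build other than mm9. Only starts that were equal or 1 below were counted, and starts that differed otherwise were not. Of those counted, 197 were 1 below and 11 equal, so 1 was added to each start. A locus can span overlapping genes, which holds for 16 members. FPKM are not counts, so no count model was fitted. Amplification from little RNA can change a gene's share of reads.

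Depth was estimated from odorant and pheromone receptor genes with loci below 1.5 kb, as the median of FPKM × kb between 0.035 and 0.065. It is rough, as are reads per gene, which use the longest coding transcript in GENCODE M21. Ratios used a pseudocount of 1 FPKM and a minimum mean of 1 FPKM, in pandas 2.3.3. The steps were tested on large changes simulated in genes with at least 5 FPKM in NTC. Genes with lower NTC levels were not simulated, and 9 of the 13 called members had a mean below 5 FPKM. Some genes are not reported here. Every measured member is named, with up to 4 genes of each partner list by size of ratio. Further genes of these lists, such as known partners of members, are named too. Some low members were chosen after their values were seen. Members and lists were chosen with earlier results of these data known. Alternatives were other pseudocounts, minimum means, centring, and leaving out genes with several identifiers or overlapping loci.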

Additional observations from a re-analysis of the deposited data

How the results depend on the processing

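No paired analysis was possible because each group has 1 library, and leaving out a replicate was impossible for the same reason. With a pseudocount of 5 FPKM, 4 members passed 2-fold toward TIC and 1 toward NTC, against 9.05% and 7.67% of all measured genes. The 8 members that then lay within 2-fold kept their sign. A pseudocount of 0.1 left the call of all 23 members in place. Among members with a mean of at least 5 FPKM, 10 remained, 3 higher and 1 lower (30% and 10%, against 12.3% and 13% of all genes), with a median of 0.62. With no minimum, all 94 entered and the median was 0, with 8 higher and 8 lower, 8.51% each way against 8.5% and 7.79% of all genes, which are close. Without members at an overlapping locus, an alternative added after seeing the data, the median was 0.43. Centring on the median gene gave 8 higher and 5 lower (34.8% and 21.7%, against 16.3% and 11.3% of all genes). The cause of these shifts beyond the change in genes entering or in the constant added was not tested. Depth limits members near a single read, and replication limits all.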

Other observations

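Receptors close to the numbered set by family or function also differed between the libraries. Of 9 further receptors of the Gprc and Lgr groups, 5 were measured, with a median log2 ratio of 1.88. Past 2-fold lay 3 toward TIC (60%, against 14.6% of all measured genes) and 1 toward NTC (20%, against 13.8%). Lgr6, a receptor for R-spondins that amplifies Wnt signals, had 313.2 FPKM in TIC against 60.0 in NTC, above Gpr125 in both libraries. Its relative Lgr4 had 51.8 FPKM in TIC against 13.3 in NTC, and Gprc5b had 51.3 against 11.3. Gprc5a, of the same family as Gprc5b, had 0.201 FPKM in TIC against 7.58 in NTC, so relatives again had opposite signs.

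Ligands of the other numbered receptors and enzymes around them had 8 measured among 17 genes found in the tables. Past 2-fold lay 1 toward TIC (12.5%, against 14.6% of all measured genes) and 3 toward NTC (37.5%, against 13.8%). The complement component C3 had 1.57 FPKM in TIC against 37.2 in NTC, and Bdh1, of ketone metabolism, had 1.70 against 30.7. Ldhb, a subunit of lactate dehydrogenase, had 46.0 against 107.3 FPKM, beside the lactate receptor Gpr81 near a single read. Ldha, another subunit, was higher in level and lay within 2-fold, with 444.1 FPKM in TIC against 484.6 in NTC. The zinc exporter Slc30a1 had 8.01 FPKM in TIC against 3.40 in NTC. Psap, whose product is a proposed ligand of Gpr37, had 184.9 FPKM in TIC against 275.3 in NTC.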
